A study of Mus musculus with 9 samples.

Results

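The genes described here mark macrophages and the wider myeloid lineage, the white blood cells that enter the wall of a diseased artery and take up lipid there. The set was a list of 31 gene symbols, and each gene was read from its brightest probe set among those that the platform annotation gives to a single gene. That rule measured 30 of the 31 genes, out of 18194 genes measured in the same way. Ly6c2, a monocyte surface antigen, had no probe set of its own, so its expression was not analysed here.

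RNA came from aortas of female APOE-/- mice on a C57BL/6 background, which lack apolipoprotein E and develop atherosclerosis. They were 8 weeks old when bought, according to the labels, and ate a diet with 0.2% cholesterol and 10% coconut oil over 30 weeks before treatment. Each mouse then received 1 injection into the tail vein and was killed 10 days later. The treated groups received a helper-dependent adenovirus, a vector without viral genes of its own, that expressed human apolipoprotein E3 (HDAd-gE3) or was empty (HDAd-0). The third group received phosphate buffered saline (PBS). All 3 groups therefore share the loss of Apoe, the diet and the injection, and none is a healthy aorta. The labels do not name the promoter that drives the transgene. Each group had 3 arrays, and each array measured a pool of 3 aortas cut from sinus to arch, so that differences between single mice are averaged within an array.

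Monocytes leave the blood, settle in the intima and become macrophages under the control of the growth factor receptor Csf1r and the transcription factor PU.1, which Spi1 encodes. They are recognised by receptors for the Fc part of antibodies, by integrins and adhesion receptors, by lysosomal proteins and by the oxidase that makes superoxide. In a bulk sample, fewer macrophages and less of an RNA per macrophage cannot be told apart.

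Values are log2 signals, so a difference of 1 would be a doubling. With 3 arrays in a group, precision is limited throughout, and the 3 comparisons share arrays: HDAd-0 enters both the comparison of the vectors and that of empty vector with PBS. The defining smooth muscle markers of the aorta were bright, with group means of 13.92 to 13.93 for Acta2 and 13.40 to 13.48 for Myh11. Of the members, Cd68, Lyz2, Mpeg1 and Csf1r were among the brightest, with group means between 12.93 and 13.86. Not all members were bright. The group means of Itgam, 6.23 to 6.42, and of Cd86, 8.01 to 8.43, lay below the array medians of 8.56 to 8.62. The cardiac muscle marker Myh6 was bright as well, with group means of 12.94 to 13.48. The mean difference between the 3' and 5' control probe sets, a sign of RNA quality, ran from 0.67 to 0.81 with HDAd-gE3, from 0.76 to 1.08 with HDAd-0 and from 0.78 to 0.92 with PBS.

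All 30 measured genes had a lower mean with HDAd-gE3 than with HDAd-0, where 61.7% of all genes did. The differences were small: their median was -0.15, against -0.04 over all genes, and they ran from -0.42 for Cd86 to -0.024 for Itgam. No member passed the threshold of adjusted p = 0.05 in limma's test, and the lowest adjusted p was 0.196, for Itgax and Ms4a6c. Over all genes, 0.00550% passed. At an unadjusted p under 0.05, 15 members were lower and 0 higher, against 9.40% of all genes lower and 3.46% higher. The arrays of the 2 vector groups did not overlap for 19 members, all lower with HDAd-gE3, against 12.0% of all genes lower without overlap and 4.24% higher. Leaving out HDAd-gE3 replicate 4 reduced the 15 members to 9.

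The empty vector was next compared with saline. With HDAd-0, 24 of the 30 genes had a higher mean than with PBS and 6 a lower one, but centring each array on its median turned that split to 18 and 12. Of all genes, 57.6% had a higher mean with HDAd-0. The median member difference was 0.067, against 0.024 over all genes, and it was 0.033 after centring. Limma called 0 members, against 0.0660% of all genes, and the lowest adjusted p was 0.118. At an unadjusted p under 0.05, 5 members were higher and 0 lower, where 8.50% of all genes were higher and 4.39% lower. The groups did not overlap for 8 members, all higher with HDAd-0, against 11.8% of all genes higher and 7.01% lower, so the share among the members, 26.7%, was above this background.

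HDAd-gE3 was then set against PBS. The mean was lower with HDAd-gE3 for 22 members and higher for 8, where 54.6% of all genes were lower, and the median member difference was -0.053, against -0.015 over all genes, and -0.075 with each array centred on its median. Limma called 0 members, against 0.126% of all genes. The lowest adjusted p was 0.103, for Itgax. At an unadjusted p under 0.05, 7 members were lower and 2 higher, against 7.27% of all genes lower and 5.94% higher, and the 7 became 3 without PBS replicate 3, without PBS replicate 4 or without HDAd-gE3 replicate 2. The 2 higher members became 0 without any one of PBS replicates 1, 3 and 4 or HDAd-gE3 replicates 3 and 4, became 1 without HDAd-0 replicate 3 or HDAd-gE3 replicate 2, and were 3 without HDAd-0 replicate 4 (with HDAd-0 arrays entering through the shared estimate of spread). The arrays did not overlap for 12 members that were lower and 2 that were higher, against 13.2% and 10.8% of all genes.

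**Figure D1:**
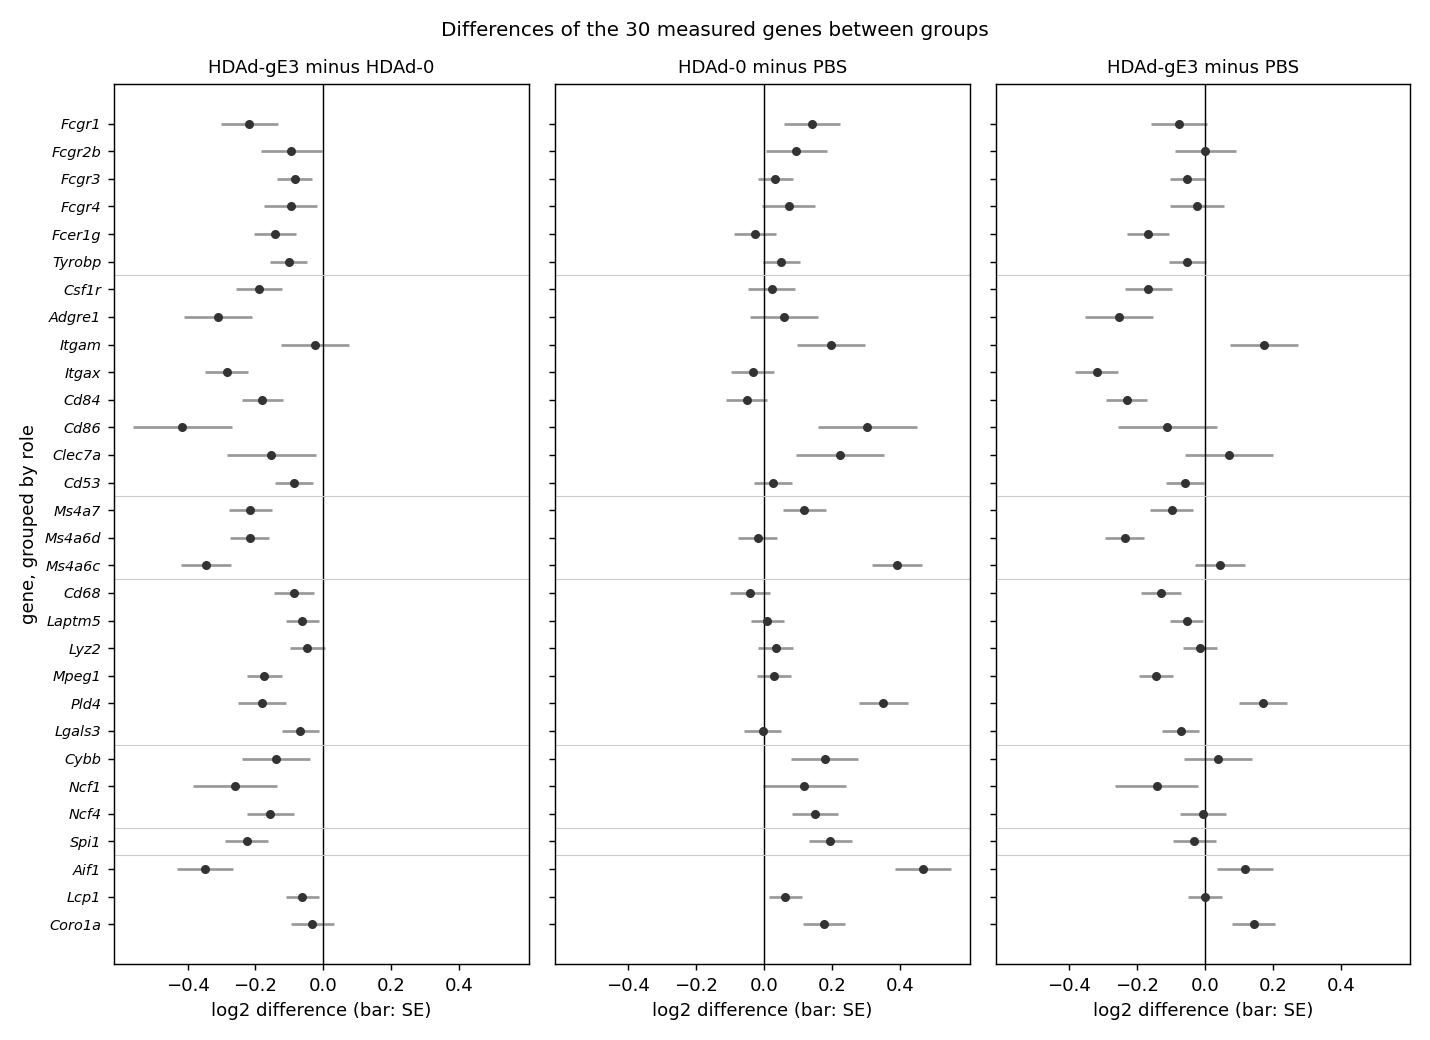
Log2 difference of each of the 30 measured genes (points) with its standard error (bars), grouped by role, for the 3 comparisons. All 30 points lie below 0 for HDAd-gE3 minus HDAd-0, 24 lie above 0 for HDAd-0 minus PBS, and 22 lie below 0 for HDAd-gE3 minus PBS.

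The order of the groups was not the same for every gene. By group mean, PBS lay above HDAd-gE3 and below HDAd-0 for 16 members, against 23.1% of all genes. From lowest to highest, the order was PBS, HDAd-gE3, HDAd-0 for 8 members, against 19.8% of all genes. It was HDAd-gE3, HDAd-0, PBS for 6, against 18.8%. HDAd-gE3 had the lowest group mean for 22 members, against 41.9% of all genes, and HDAd-0 the highest for 24, against 42.9% of all genes. For 10 members the HDAd-gE3 arrays lay below all 6 other arrays, against 4.65% of all genes: Fcer1g, Tyrobp, Csf1r, Adgre1, Itgax, Cd84, Ms4a7, Ms4a6d, Laptm5 and Mpeg1. For 6 others the HDAd-0 arrays lay above all 6 other arrays, against 3.92% of all genes: Ms4a6c, Pld4, Ncf4, Spi1, Aif1 and Lcp1. The 2 patterns share no gene. The plot of deviations by array shows both as blocks of colour.

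**Figure D2:**
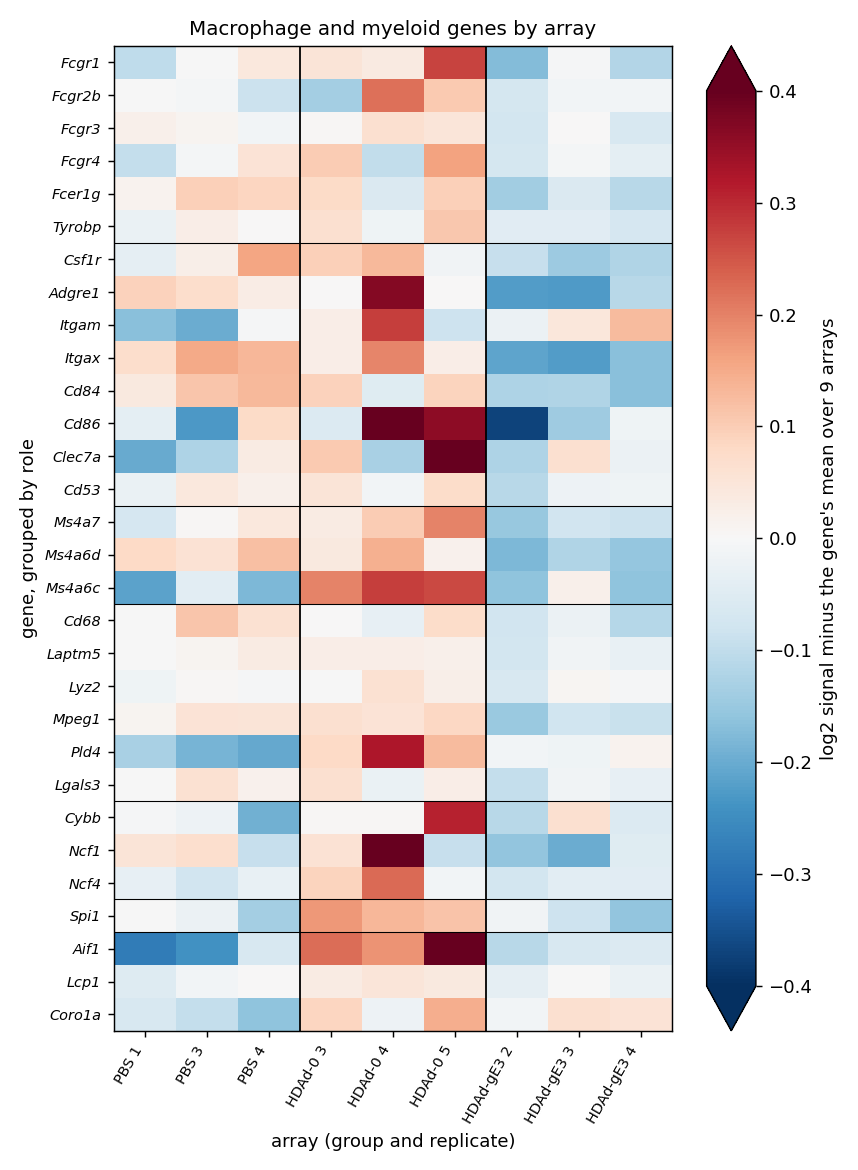
Deviation of each measured gene from its own mean over the 9 arrays (log2, colour scale limited to -0.4 and 0.4), with genes grouped by role and arrays by group. On HDAd-gE3 replicate 2 all 30 genes lie below their own mean, while the HDAd-0 arrays are mostly above it.

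The Fc receptors bind antibody-coated particles and pass the signal on through adaptor proteins that carry an activation motif (ITAM). Fcer1g, the shared signalling chain of the activating Fc receptors, read 12.89, 12.97 and 12.96 with PBS, 12.95, 12.82 and 12.97 with HDAd-0, and 12.73, 12.82 and 12.76 with HDAd-gE3. The HDAd-gE3 values were below all others, and the PBS and HDAd-0 values overlapped. The difference from PBS was -0.17 ± 0.062 (limma adjusted p = 0.306) and from HDAd-0 -0.14 ± 0.062 (adjusted p = 0.385). Tyrobp, the adaptor of Trem2 and other myeloid receptors, read 12.97, 13.02 and 12.998 with PBS, 13.06, 12.98 and 13.10 with HDAd-0, and 12.95, 12.95 and 12.93 with HDAd-gE3. Its HDAd-gE3 arrays were again the lowest 3 of the 9, though by a small margin, with a difference of -0.10 ± 0.054 from HDAd-0.

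Fcgr1, the high-affinity IgG receptor, had means of 10.74 ± 0.073 with PBS, 10.88 ± 0.13 with HDAd-0 and 10.66 ± 0.086 with HDAd-gE3 (SD, n = 3). HDAd-0 replicate 5 was the highest of its 9 values, at 11.03. The HDAd-gE3 minus HDAd-0 difference was -0.22 ± 0.083 (limma adjusted p = 0.348), the largest in size of these 6 genes. Fcgr2b, the inhibitory receptor, differed by -0.094 ± 0.089, Fcgr3 by -0.084 ± 0.051 and Fcgr4, which binds IgG2 subclasses in the mouse, by -0.096 ± 0.078, each under 2 standard errors. The dimmer probe sets of Fcgr2b gave -0.24 ± 0.087, -0.15, -0.10 and, at a signal of only 2.38, 0.12 between the vectors. By the brightest sets, the median of the 6 genes was -0.099 for HDAd-gE3 minus HDAd-0 and 0.061 for HDAd-0 minus PBS.

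Among the surface receptors, Itgax, the integrin alpha chain CD11c of dendritic cells and lesional macrophages, had the lowest adjusted p of the members against PBS. It read 11.92, 12.001 and 11.98 with PBS, 11.88, 12.04 and 11.88 with HDAd-0, and 11.64, 11.63 and 11.68 with HDAd-gE3. The 3 HDAd-gE3 arrays lay close together and below the other 6, which overlapped. The mean was 1.25-fold lower than with PBS, a difference of -0.32 ± 0.064 (limma adjusted p = 0.103), and 1.22-fold lower than with HDAd-0, a difference of -0.29 ± 0.064 (adjusted p = 0.196). HDAd-0 differed from PBS by -0.034 ± 0.064.

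Adgre1, an adhesion G protein-coupled receptor and the classical mouse macrophage antigen, read 11.57, 11.55 and 11.51 with PBS, 11.48, 11.84 and 11.48 with HDAd-0, and 11.25, 11.25 and 11.37 with HDAd-gE3. The HDAd-gE3 arrays were the lowest 3, and HDAd-0 replicate 4 stood above the other 8. The difference was -0.31 ± 0.10 from HDAd-0 (limma adjusted p = 0.296) and -0.25 ± 0.10 from PBS (adjusted p = 0.338). Csf1r, the receptor for the macrophage growth factors Csf1 and Il34, read 13.08, 13.14 and 13.27 with PBS, 13.21, 13.24 and 13.10 with HDAd-0, and 13.02, 12.97 and 12.99 with HDAd-gE3. Its HDAd-gE3 values were the lowest 3 and differed by -0.19 ± 0.069 from HDAd-0 (adjusted p = 0.331). The dimmer probe sets of Csf1r gave -0.28 and -0.23 in the same comparison, but against PBS 1 of them gave 0.11 where the brightest gave -0.17.

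Cd84, an adhesion receptor of the SLAM family, had means of 12.50 ± 0.048 with PBS, 12.45 ± 0.081 with HDAd-0 and 12.27 ± 0.026 with HDAd-gE3 (SD, n = 3), and its HDAd-gE3 arrays lay below the rest, though a dim second probe set gave 0.23 for HDAd-gE3 minus HDAd-0. Cd86, a co-stimulatory ligand for T cells, had the widest difference between the vectors, -0.42 ± 0.15 (limma adjusted p = 0.326). Its standard error was also the largest of the members, and its arrays read 8.15, 7.96 and 8.27 with PBS, 8.13, 8.61 and 8.55 with HDAd-0, and 7.82, 8.05 and 8.17 with HDAd-gE3, so that the vector groups overlapped. A second probe set of Cd86 gave -0.48. Clec7a, the beta-glucan receptor dectin-1, differed by -0.15 ± 0.13, and the tetraspanin Cd53 by -0.087 ± 0.056. Itgam, the integrin chain CD11b, was the dimmest member, with means of 6.23 ± 0.10 with PBS, 6.42 ± 0.18 with HDAd-0 and 6.40 ± 0.075 with HDAd-gE3: HDAd-gE3 was close to HDAd-0 in mean, and its difference from PBS was 0.17 ± 0.10 (adjusted p = 0.491).

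**Figure D3:**
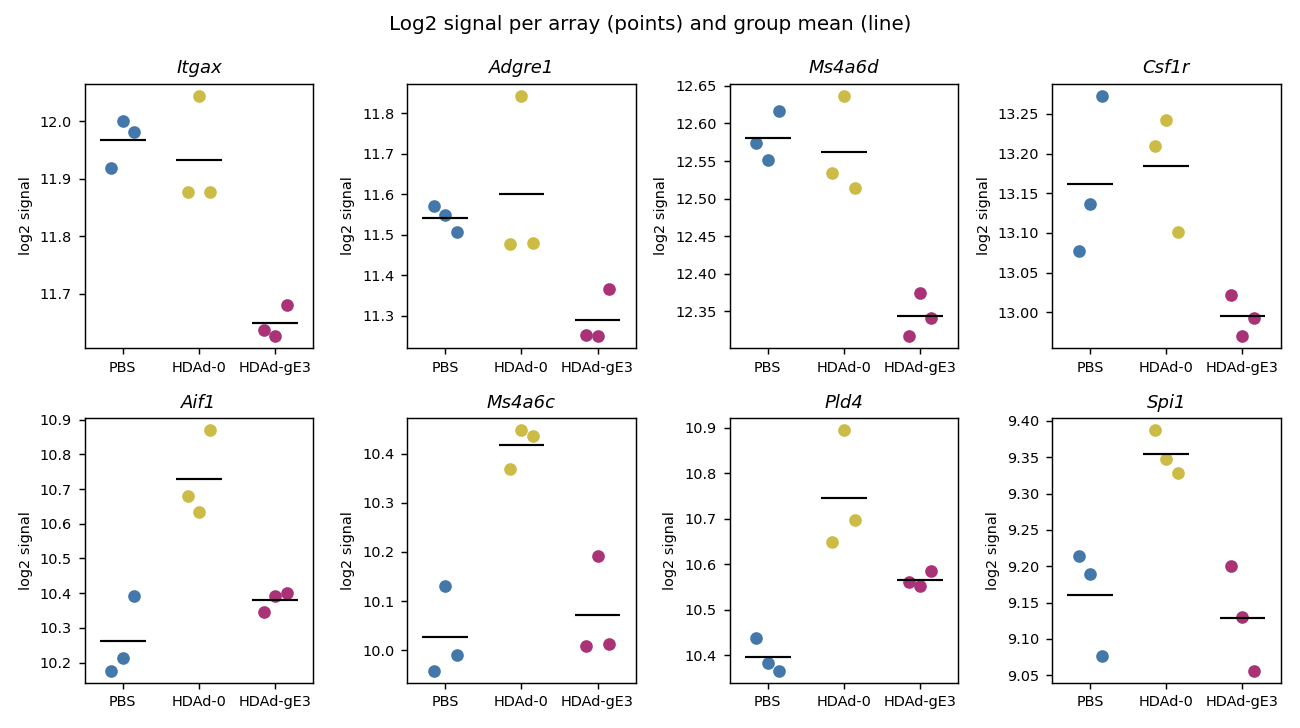
Log2 signal on each array (points) and group mean (line) of 8 members, each on its own vertical axis. Itgax, Adgre1, Ms4a6d and Csf1r are lowest with HDAd-gE3, while Aif1, Ms4a6c, Pld4 and Spi1 are highest with HDAd-0.

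The MS4A genes lie together on chromosome 19 and encode 4-span membrane proteins of myeloid cells, and they showed both patterns. Ms4a6d read 12.57, 12.55 and 12.62 with PBS, 12.53, 12.64 and 12.51 with HDAd-0, and 12.32, 12.38 and 12.34 with HDAd-gE3, with HDAd-gE3 below the other 6 arrays. The difference was -0.24 ± 0.056 from PBS (limma adjusted p = 0.163) and -0.22 ± 0.056 from HDAd-0 (adjusted p = 0.229). Ms4a6c read 9.96, 10.13 and 9.99 with PBS, 10.37, 10.45 and 10.44 with HDAd-0, and 10.01, 10.19 and 10.01 with HDAd-gE3, and here the HDAd-0 arrays were above the other 6 while HDAd-gE3 and PBS overlapped. It was 1.31-fold higher in mean with HDAd-0 than with PBS, a difference of 0.39 ± 0.074 (adjusted p = 0.127), and 1.27-fold higher than with HDAd-gE3. Ms4a7 lay between, with means of 12.15 ± 0.055 with PBS, 12.27 ± 0.082 with HDAd-0 and 12.05 ± 0.042 with HDAd-gE3. A dim second probe set of Ms4a7 gave 0.12 ± 0.26 for HDAd-gE3 minus HDAd-0 and -0.37 ± 0.26 for HDAd-0 minus PBS. Probes of such closely related genes can share sequence, and the Ms4a6d probe set carries the name suffix that Affymetrix gives to sets matching more than a single transcript, as do those of Fcgr2b and Aif1.

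The 6 lysosomal and secreted proteins had a median of -0.077 for HDAd-gE3 minus HDAd-0 and of 0.019 for HDAd-0 minus PBS. Cd68, a lysosomal glycoprotein used to stain lesional macrophages, had means of 13.06 ± 0.056 with PBS, 13.02 ± 0.053 with HDAd-0 and 12.93 ± 0.045 with HDAd-gE3 (SD, n = 3) and differed by -0.086 ± 0.059 between the vectors. Lyz2 (lysozyme) differed by -0.048 ± 0.051, Lgals3 (galectin-3) by -0.068 ± 0.054 and Laptm5, a lysosomal membrane protein of blood cells, by -0.062 ± 0.049. Mpeg1, a pore-forming protein of phagosomes, read 13.07, 13.12 and 13.11 with PBS, 13.13, 13.12 and 13.15 with HDAd-0, and 12.91, 12.98 and 12.97 with HDAd-gE3. Its HDAd-gE3 arrays lay below all others, with -0.17 ± 0.05 from HDAd-0 (limma adjusted p = 0.264) and -0.14 ± 0.05 from PBS (adjusted p = 0.287).

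Pld4, an endolysosomal nuclease, was an exception in this group. It read 10.44, 10.38 and 10.37 with PBS, 10.65, 10.89 and 10.70 with HDAd-0, and 10.56, 10.55 and 10.59 with HDAd-gE3. The 3 groups did not overlap at all: PBS was lowest, HDAd-gE3 in the middle and HDAd-0 highest. HDAd-0 minus PBS was 0.35 ± 0.071 (limma adjusted p = 0.14) and HDAd-gE3 minus PBS 0.17 ± 0.071 (adjusted p = 0.358). For the 7 members with a mean signal over 13 the vector difference had a median of -0.068, against -0.18 for the other 23. Whether bright probe sets respond less on these arrays was not tested.

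The phagocyte NADPH oxidase makes superoxide from a membrane part and cytosolic subunits. Its catalytic chain Cybb differed by -0.14 ± 0.099 between HDAd-gE3 and HDAd-0, the organiser Ncf1 by -0.26 ± 0.12 and the phosphoinositide-binding subunit Ncf4 by -0.16 ± 0.068, none of them called (limma adjusted p = 0.564, 0.414 and 0.386). Ncf4 read 10.31, 10.26 and 10.31 with PBS, 10.43, 10.57 and 10.33 with HDAd-0, and 10.27, 10.30 and 10.29 with HDAd-gE3, so the HDAd-0 arrays were the highest 3. Of the other oxidase genes listed as partners, the membrane subunit Cyba differed by -0.045 ± 0.059 and the GTPase Rac2 by -0.075 ± 0.075. Rac2 differed by 0.18 ± 0.075 between HDAd-0 and PBS (adjusted p = 0.349).

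Spi1 encodes PU.1, the ETS-family factor required for macrophage development. It read 9.21, 9.19 and 9.08 with PBS, 9.39, 9.35 and 9.33 with HDAd-0, and 9.20, 9.13 and 9.06 with HDAd-gE3. All 3 HDAd-0 arrays lay above the other 6, and HDAd-gE3 and PBS overlapped. The difference was -0.23 ± 0.063 for HDAd-gE3 minus HDAd-0 (limma adjusted p = 0.251), 0.19 ± 0.063 for HDAd-0 minus PBS (adjusted p = 0.271) and -0.031 ± 0.063 for HDAd-gE3 minus PBS (adjusted p = 0.872).

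Because PU.1 is known to act at macrophage promoters through purine-rich sites, the promoters of the members were searched for its core, GAGGAA, on both strands. RefSeq windows of assembly GRCm38.p6, from 250 bases before to 50 after a gene's start, were at hand for 24 of the 31 genes. The core occurred in 14 of these 24 genes (58.3%), against 31.3% of 27025 genes. The longer form AGAGGAAG, which contains the core, occurred in 6 (25.0%), against 5.22%. Ly6c2, whose expression was not measured, is counted in the 24, the 14 and the 6. The C/EBP letters TTGCNNAA occurred in 2 genes (8.33%, against 12.2%), and TATAAA in 2 (8.33%, against 15.7%). A match is a description of the letters, and binding was not measured. Within the 100 bases before the start, 8 of the 23 measured genes with a window held the core (34.8%), against 11.2% of genes. They are shown here 5′ to 3′ along the gene's strand, up to the base before the start, to let the position and orientation of the core be compared, with the core in capitals; TTCCTC is the same core on the opposite strand.
Fcgr1 (chr3:96293970-96294069, minus strand): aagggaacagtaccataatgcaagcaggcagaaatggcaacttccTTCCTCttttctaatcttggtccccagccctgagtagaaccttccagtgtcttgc
Fcgr3 (chr1:171059404-171059503, minus strand): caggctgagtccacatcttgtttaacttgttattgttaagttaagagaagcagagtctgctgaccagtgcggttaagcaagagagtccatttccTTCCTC
Fcgr4 (chr1:171018826-171018925, plus strand): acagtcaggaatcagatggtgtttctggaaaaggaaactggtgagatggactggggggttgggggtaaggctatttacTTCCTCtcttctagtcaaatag
Itgam (chr7:128062540-128062639, plus strand): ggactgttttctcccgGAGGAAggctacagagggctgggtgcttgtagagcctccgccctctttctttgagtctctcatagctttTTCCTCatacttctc
Clec7a (chr6:129472780-129472879, minus strand): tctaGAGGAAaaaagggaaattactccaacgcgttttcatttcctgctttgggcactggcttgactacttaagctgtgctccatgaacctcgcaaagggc
Cd53 (chr3:106790150-106790249, minus strand): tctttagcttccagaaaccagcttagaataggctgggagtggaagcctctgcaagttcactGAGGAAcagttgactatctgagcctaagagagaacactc
Laptm5 (chr4:130913216-130913315, plus strand): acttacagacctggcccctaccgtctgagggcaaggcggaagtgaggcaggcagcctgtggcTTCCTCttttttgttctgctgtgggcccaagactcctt
Aif1 (chr17:35176053-35176152, minus strand): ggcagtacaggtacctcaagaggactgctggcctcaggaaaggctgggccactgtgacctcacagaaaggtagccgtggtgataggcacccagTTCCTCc
The core lay on the opposite strand in Fcgr1, Fcgr3, Fcgr4, Laptm5 and Aif1, on the gene's own strand in Clec7a and Cd53, and once on each in Itgam. In Fcgr3 and Aif1 it ended at or next to the last base before the start shown. For a gene with several starts, the window with most matches was shown, and among equals the first. Fcgr3 and Clec7a had another start, from which the core began at -15 and -90, where it began at -6 and -96 in the windows shown. Of these 8 genes, Laptm5 was among those lowest with HDAd-gE3 and Aif1 among those highest with HDAd-0, while Itgam, at -0.024, had the smallest difference between the vectors of all members. Fcgr1, Fcgr3 and Fcgr4 encode related Fc receptors, so their matches may not be independent of each other.

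The remaining members organise actin. Aif1 (Iba1), an actin-bundling protein used to stain macrophages and microglia, read 10.18, 10.21 and 10.39 with PBS, 10.68, 10.63 and 10.87 with HDAd-0, and 10.35, 10.39 and 10.40 with HDAd-gE3. The HDAd-0 arrays were above the other 6, and HDAd-gE3 and PBS overlapped. It was 1.38-fold higher in mean with HDAd-0 than with PBS, a difference of 0.47 ± 0.083 (limma adjusted p = 0.118), the widest of the members in that comparison. HDAd-gE3 minus HDAd-0 was -0.35 ± 0.083 (adjusted p = 0.206). Lcp1 (L-plastin) differed by -0.062 ± 0.049 between the vectors. Coro1a (coronin 1A), which lymphocytes also express, read 12.50, 12.47 and 12.41 with PBS, 12.65, 12.54 and 12.71 with HDAd-0, and 12.56, 12.63 and 12.62 with HDAd-gE3: both vector groups lay above PBS, and its difference between the vectors was only -0.033 ± 0.063.

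**Figure D4:**
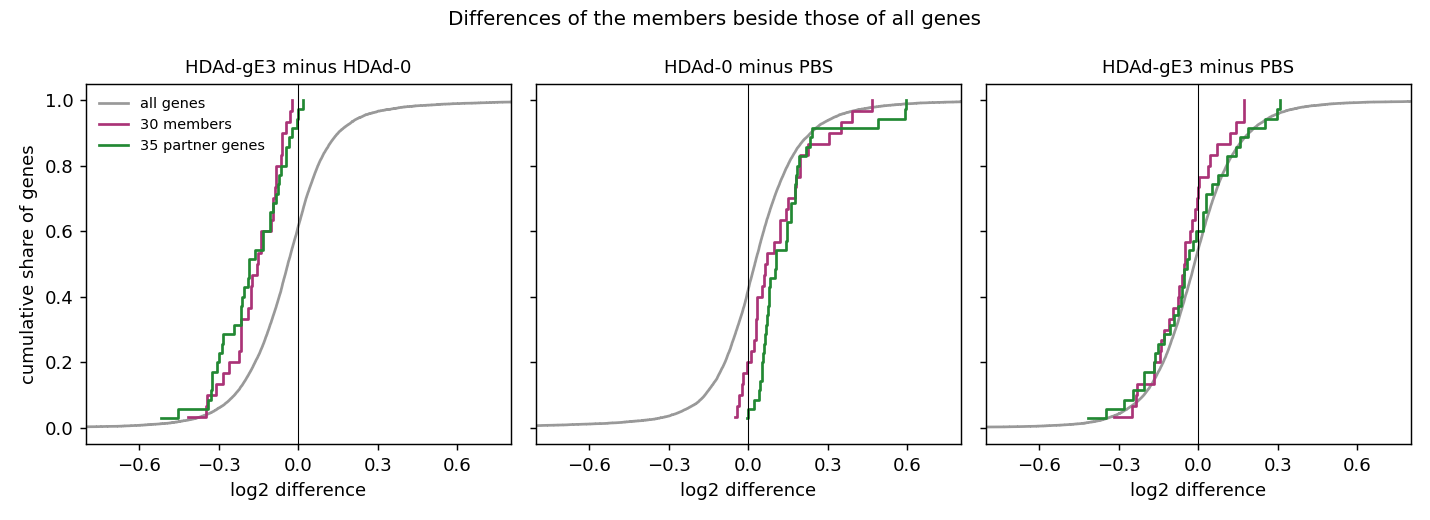
Cumulative share of genes (vertical axis) by log2 difference (horizontal axis) for the 30 members, the 35 measured partner genes and all 18194 genes in each comparison, with the horizontal axis limited to -0.8 and 0.8. The members' curve lies mostly left of the curve for all genes for HDAd-gE3 minus HDAd-0, where the medians are -0.15 and -0.04.

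Genes that work with the members were read from 5 lists of 40 partner genes, of which 35 were measured. Their means were lower with HDAd-gE3 than with HDAd-0 for 34 and higher for 1, with a median of -0.19. Limma called 0 of them, against 0.00550% of all genes, and 12 were lower and 0 higher at an unadjusted p under 0.05, against 9.40% and 3.46% of all genes. With HDAd-0 against PBS, 33 were higher and 2 lower, with a median of 0.10. Limma called 0, against 0.0660% of all genes, and at an unadjusted p under 0.05 there were 10 higher and 0 lower, against 8.50% and 4.39% of all genes. With HDAd-gE3 against PBS, 21 were lower and 14 higher, with a median of -0.045. Here 5 were lower and 1 higher at an unadjusted p under 0.05, against 7.27% and 5.94% of all genes, and limma called 0, against 0.126%.

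All 10 measured genes of the signalling list were lower in mean with HDAd-gE3 than with HDAd-0. The list also holds the receptors Trem2 and Sirpa and the integrin chain Itgb2. Plcg2, the phospholipase downstream of Syk, read 9.77, 9.78 and 9.75 with PBS, 9.91, 10.07 and 9.84 with HDAd-0, and 9.36, 9.55 and 9.56 with HDAd-gE3, and its HDAd-gE3 arrays lay below the other 6. The difference from HDAd-0 was -0.45 ± 0.08 (limma adjusted p = 0.191). The exchange factor Vav1 differed by -0.34 ± 0.079 and the inhibitory phosphatase Inpp5d (SHIP1) by -0.29 ± 0.064 (adjusted p = 0.205 and 0.196). Against PBS, Vav1 differed by -0.35 ± 0.079 and the kinase Btk by -0.25.

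Of the ligands and growth factor receptors, 6 of 7 were lower with HDAd-gE3 than with HDAd-0 and 7 of 7 higher with HDAd-0 than with PBS. Csf2ra, the binding chain of the GM-CSF receptor, differed by -0.31 ± 0.069 between the vectors (limma adjusted p = 0.196). Ccr2, the receptor that draws inflammatory monocytes from the blood, read 10.26, 10.12 and 10.13 with PBS, 10.73, 10.69 and 10.87 with HDAd-0, and 10.24, 10.63 and 10.57 with HDAd-gE3. The HDAd-0 arrays were the highest 3 and the HDAd-gE3 arrays overlapped those of PBS. HDAd-0 minus PBS was 0.59 ± 0.11 (adjusted p = 0.123). Cx3cr1, the fractalkine receptor of patrolling monocytes, differed by 0.60 ± 0.17 in that comparison (adjusted p = 0.221).

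All 6 measured transcription factors and all 10 other macrophage surface genes were lower in mean with HDAd-gE3 than with HDAd-0. Irf8, a partner of PU.1, differed by -0.21 ± 0.064 (limma adjusted p = 0.273) and C1qc, a chain of complement C1q, by -0.16 ± 0.048 (adjusted p = 0.266). Siglec1, the sialic acid receptor CD169, differed by -0.52 ± 0.10 (adjusted p = 0.191), at a dim signal of 5.18 ± 0.082 with PBS, 5.29 ± 0.12 with HDAd-0 and 4.77 ± 0.18 with HDAd-gE3. Ms4a4c, a further MS4A gene, differed by -0.33 there and by 0.49 for HDAd-0 minus PBS.

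Other probe sets of the members gave a check within the array. There were 25 of them for 14 members, and 21 of the 25 were lower in mean with HDAd-gE3 than with HDAd-0, as the brightest sets were. All 14 with a mean signal of at least 8, a limit chosen after the values were seen, were lower. For HDAd-0 minus PBS, 13 of these 14 had the sign of the brightest set, and for HDAd-gE3 minus PBS 10 of 14. Probe sets of a gene measure the same RNA pools and are not independent replicates.

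Markers of other cell types also differed between the groups, not all in the members' direction. The mean signal of the 30 members per array ran from 11.62 to 11.66 with PBS, from 11.72 to 11.78 with HDAd-0 and from 11.55 to 11.62 with HDAd-gE3, so that HDAd-0 lay above the rest. That of 8 endothelial markers ran from 10.22 to 10.32, 10.64 to 10.78 and 10.40 to 10.52 in the same order. With HDAd-0 8 of 8 were higher than with PBS, against 57.6% of all genes. Limma called 2 of them, against 0.0660% of all genes, with a lowest adjusted p of 0.0466. Calls over all genes in that comparison fell from 12 to 1 with centred arrays. All 8 were also higher with HDAd-gE3 than with PBS (median 0.17), where 22 of the 30 members and 54.6% of all genes were lower. That of 8 smooth muscle markers ran the other way, from 12.59 to 12.62, 12.42 to 12.51 and 12.61 to 12.66. The part of these shifts in the members' differences was not tested.

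Markers of other white blood cells did not follow a single direction. Of 9 measured neutrophil markers, 8 were higher with HDAd-gE3 than with HDAd-0, with a median of 0.91, while all 30 members were lower. Neutrophils also express several members, among them Itgam, Ncf1, Ncf4, Coro1a and Tyrobp. The mean neutrophil signal ran from 9.75 to 11.14 with HDAd-gE3, with replicate 4 the highest, against 8.77 to 9.37 with HDAd-0 and 8.98 to 9.26 with PBS. Of the T cell markers, 7 of 9 were lower with HDAd-gE3 than with HDAd-0 (median -0.061), of the B cell markers 5 of 7 (median -0.047) and of the dendritic cell markers 5 of 6 (median -0.31). Of all genes, 61.7% were lower in that comparison (median -0.04), so the T and B cell medians were close to this background. The dendritic cell list was dim, at mean signals of 6.02 to 6.71, and its HDAd-gE3 arrays overlapped those of HDAd-0. No marker has a true 0 on this scale. Liver markers were also lower with HDAd-gE3 than with HDAd-0 in 6 of 6 (median -0.87), and skeletal muscle markers in 5 of 6 (median -1.11), while cardiac markers were higher in 6 of 6 (median 0.50) and erythroid markers in 4 of 4 (median 0.84). How far any of these tissues bears on the members was not tested. Replicate 4 of HDAd-gE3 and replicate 5 of HDAd-0 stood furthest apart in neutrophil and liver markers, respectively. With both left out, a choice made after seeing the data, all 30 members were lower in mean with HDAd-gE3 than with HDAd-0. At an unadjusted p under 0.05 in limma's test, 12 were lower, where the main fit had 15.

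**Figure D5:**
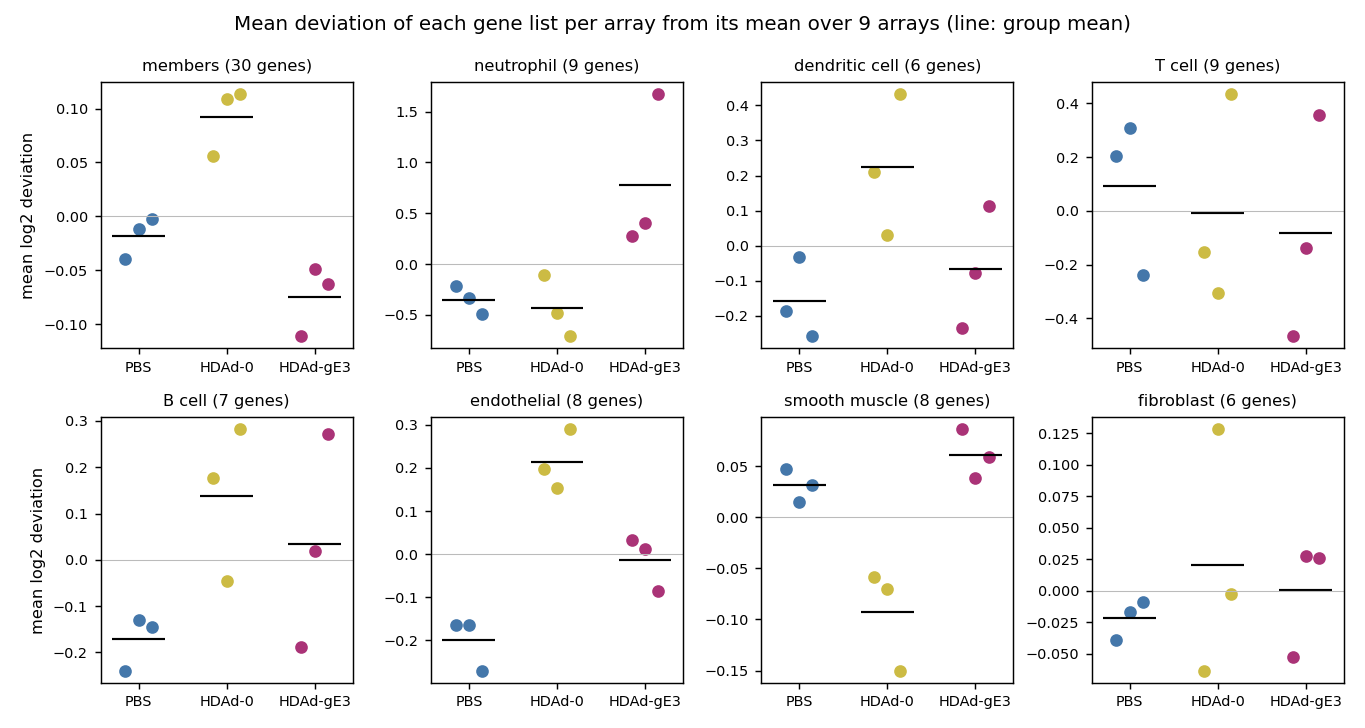
Mean log2 deviation of each list of genes from its mean over the 9 arrays, for each array (points) and group (line), with a separate vertical axis in each panel. The members and the endothelial markers are highest with HDAd-0, the smooth muscle markers are lowest there, and the neutrophil markers are highest with HDAd-gE3.

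The arrays of a group were not equally close. The median SD of the members was 0.048 with PBS, 0.082 with HDAd-0 and 0.041 with HDAd-gE3. HDAd-0 replicates 4 and 5 held the highest value of 13 and 11 members, and HDAd-gE3 replicate 2 the lowest of 11. On that array all 30 members were below their own mean over the 9 arrays, against 23 on HDAd-gE3 replicate 3 and 27 on replicate 4.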

How the data were processed

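RNA of 9 pools of aortas, 3 per group, was labelled with biotin and hybridised to Affymetrix mouse arrays. The authors deposited log2 signals of 45101 probe sets. Per the submitters' processing notes these came from RMA, of a version not given in the sources used here. RMA corrects background, quantile normalizes and summarises probe sets, so it makes array distributions alike and hides a shift shared by most genes. That the unit is log2 was read from the values, 1.98 to 14.74.

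A single gene was annotated to 34958 probe sets, more than 1 gene to 932 and no gene to 9147, beside 64 control sets. The brightest single-gene set stood for each of 18194 genes, with no filter on dim genes. Linear models over all 9 arrays (limma 3.58.1, R 4.3.3, 6 residual degrees of freedom) gave differences, standard errors and p-values adjusted by Benjamini-Hochberg over all genes, called at 0.05. The smallest p of an exact permutation test with 3 arrays a side is 0.1. The p-values measure the spread between pools, not mice. Running numbers in the sample titles fall in a separate block for each group, and if they follow processing, its order and the group cannot be told apart.

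The members and lists were chosen with earlier results of these data known. All members are named, and per partner list and comparison some of the 3 genes with the smallest unadjusted p. The fit was tested on simulated data. As alternatives, arrays were scaled otherwise, dim genes removed, other probe sets used, the third group dropped, the replicate number blocked, arrays weighted, the variance tied to intensity, RNA quality added as a covariate and each array left out. Leaving out 2 arrays together was chosen after seeing the data. Promoter windows came from RefSeq (GRCm38.p6). Figures were drawn with matplotlib 3.10.9.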

Additional observations from a re-analysis of the deposited data

How the results depend on the processing

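The members' direction in the comparison of the vectors held best. For HDAd-gE3 minus HDAd-0, 28 to 30 members stayed lower in mean under every alternative run, 4 turned sign in at least 1 of 20 (Cd84, Clec7a, Coro1a and Itgam), and limma called 0 members in any. Their median of -0.15 ran from -0.18 to -0.13 when single arrays were left out. For HDAd-0 minus PBS 13 members turned sign in at least 1 alternative, limma called 0 in any, and the median of 0.067 ran from 0.054 to 0.093 without single arrays and was 0.033 with centred arrays. For HDAd-gE3 minus PBS 10 turned sign, and the median of -0.053 ran from -0.071 to -0.037 without single arrays. In that comparison limma called 1 member, Itgax (adjusted p = 0.0315), among genes above the median signal. It called 2 with an intensity trend (Itgax and Ms4a6d), 4 with array weights (Itgax, Ms4a6d, Cd84 and Adgre1) and 0 in the other alternatives. In these settings limma also called more of all genes than the 23 of the main fit. The counts were 144 among genes above the median signal, 89 of 18194 with an intensity trend and 804 of 18194 with array weights. The cause was not tested.

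The number of genes called over the whole array was unstable. It was 1 for HDAd-gE3 minus HDAd-0, and 0 with centred arrays, quantile normalization, only genes above the median signal, every probe set tested, only the 2 groups compared, array weights or the RNA quality covariate; without single arrays it ran from 0 to 10. It was 12 for HDAd-0 minus PBS, 1 with either scaling, 22 above the median signal, 3 with every probe set, 0 with only the 2 groups or the covariate, 1 without the 2 arrays, and 0 to 31 without single arrays. It was 23 for HDAd-gE3 minus PBS, 144 above the median signal, 804 with array weights, 89 with an intensity trend, 13 with only the 2 groups, 3 with the covariate, 1 without the 2 arrays, and 0 to 21 without single arrays. Among fits without single arrays, the highest counts for HDAd-gE3 minus HDAd-0 and HDAd-0 minus PBS, 10 and 31, came without HDAd-0 replicate 4.

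With the replicate number as a block, the median member difference was -0.100 for HDAd-gE3 minus HDAd-0 and 0.034 for HDAd-0 minus PBS. In the former 28 members were lower, and 0 genes were called in each comparison. At an unadjusted p under 0.05 in limma's test, 7 members were lower with HDAd-gE3 than with HDAd-0, where the main fit had 15. All groups have a number 3 and a number 4. The deviations of arrays with the same number correlated between -0.046 and 0.10, and those of arrays with different numbers between -0.156 and 0.139. Whether arrays that share a number belong together cannot be told from these few values. Signal limits the dim members most: Itgam and Cd86 fell out when only genes above the median signal were kept.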
